A study of Arabidopsis thaliana with 4 samples.

Results

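Jasmonates are plant hormones made from membrane fatty acids, and in Arabidopsis they regulate defence against insects and fungi, wound responses, root growth and stamen development. The genes described here are 38 genes of jasmonate synthesis, conjugation and turnover, of its receptor and repressors, and of its responses, chosen by gene identifier from the 33602 genes of the deposited table. All 38 identifiers were found in the table. The data came from whole Arabidopsis thaliana seedlings of 2 genotypes, wild type (WT, accession Col-0) and the line jmj28-3, with 2 sequencing libraries of polyadenylated RNA each. Seedlings of both genotypes were 12 days old and had been kept on half-strength MS medium with 1% sucrose at 23 °C, under 16 h of light and 8 h of dark. JMJ28 encodes a jumonji-domain protein of the histone demethylase class. The kind of lesion in jmj28-3, how many seedlings went into a library and the hour of harvest are not stated in the labels.

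In the pathway, a lipase releases linolenic acid in the chloroplast, a 13-lipoxygenase oxygenates it, and allene oxide synthase (AOS) and allene oxide cyclase (AOC) turn the product into OPDA. OPR3 reduces OPDA in the peroxisome, and after chain shortening JAR1 joins jasmonic acid to isoleucine, which gives the active hormone. The hormone binds the F-box protein COI1 together with a JAZ protein, the JAZ protein is degraded, and MYC factors that it had held inactive, with the adaptor NINJA and the corepressor TOPLESS, can then drive transcription. JAZ genes and many synthesis genes are themselves targets of MYC factors, so their transcripts are widely used as readouts of the pathway.

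Values were FPKM, which scale the fragments of a gene for the length of its transcript and the size of the library, so levels can be compared between genes per length. Differences were tested with limma on log2(FPKM + 1) over 20232 genes with a mean of at least 0.5 FPKM, and a gene was called at a Benjamini-Hochberg adjusted p under 0.05 over all of these. The number of reads per library is unknown. Depth relative to WT replicate 1 was estimated from the most common ratio of FPKM between the libraries, over genes low in both. It was 1.08 for WT replicate 2, 1.17 for jmj28-3 replicate 1 and 1 for jmj28-3 replicate 2. Log2 values of replicates correlated at 0.989 in both genotypes and at 0.977 to 0.980 between genotypes. JMJ28 itself had 3.8 and 5.54 FPKM in the WT libraries and 3.65 and 3.33 in jmj28-3 (adjusted p = 0.327). No label ties a replicate to its own plate or batch of plants, so the p-values cover the spread between these libraries alone, and that spread may be technical.

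With 2 libraries per genotype, few jasmonate genes were called, a share not far above that of all tested genes. The calls fell at different levels of the pathway. The lipoxygenase gene LOX4 rose 3.37-fold in jmj28-3, the repressor genes JAZ3 and JAZ6 rose 1.68-fold and 1.70-fold, and the activator gene MYC4 was 1.76-fold lower. Of the 38 genes, 35 passed the filter on low values, and 3 were called higher and 1 lower, while 31 were not called. The 4 calls were 11.4% of the 35, and among all tested genes 7.97% were called. By direction, 8.57% of the 35 were called higher and 2.86% lower, where all tested genes had 4.18% and 3.79%. At an unadjusted p under 0.05 in limma 9 of the 35 were higher and 2 lower, and of all 20232 tested genes 2139 and 2764. The median log2 change of the 35 was 0.11, and that of all tested genes was -0.03. In 15 of the 35 both jmj28-3 libraries lay above both WT libraries and in 7 both lay below, 42.9% and 20%. Over all tested genes the libraries of the genotypes did not overlap for 55.2%, with 22.4% above and 32.7% below. JAZ7 was the 1 gene that reached the filter in jmj28-3 and not in WT, so it could only appear as higher. The plots of levels and of log2 changes show all 38 genes by role.

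**Figure D1:**
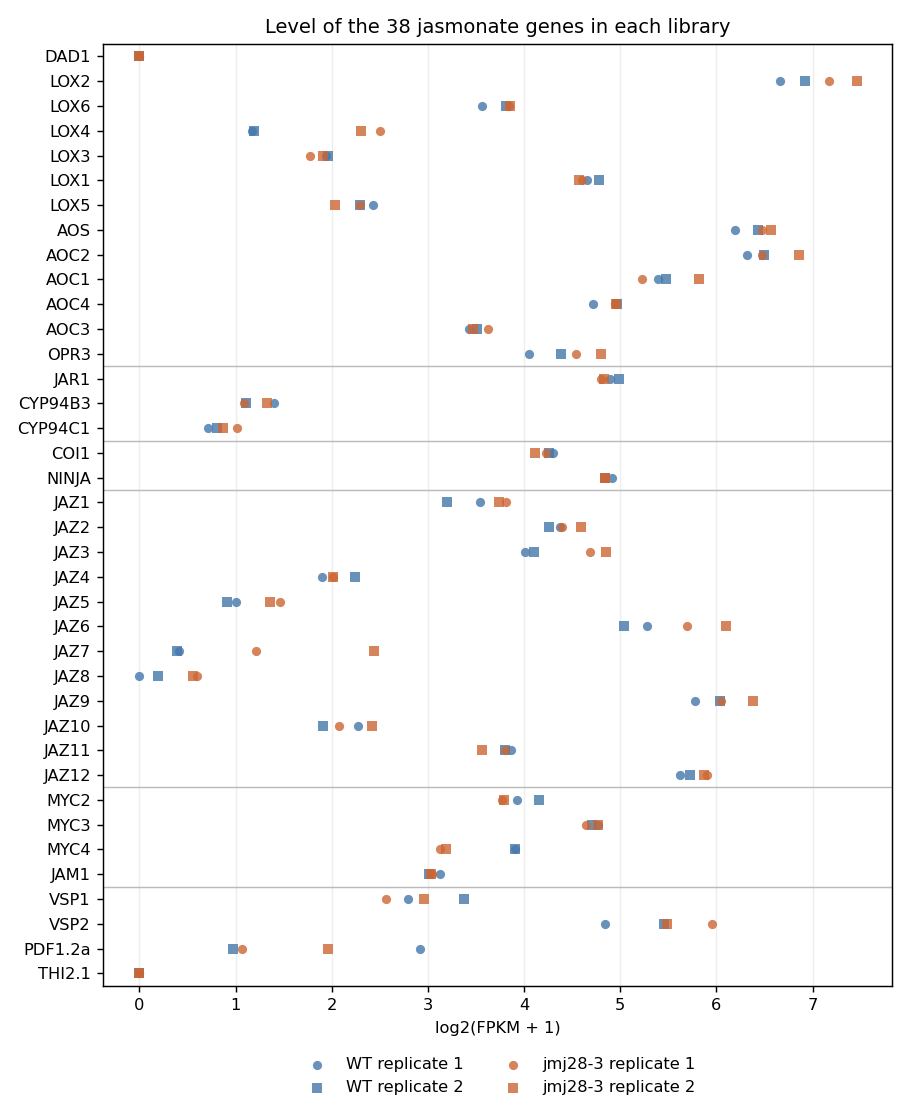
Level of each of the 38 genes as log2(FPKM + 1) (horizontal axis) in the 2 WT libraries (blue) and the 2 jmj28-3 libraries (orange), with grey lines between roles. LOX2 had the highest values, LOX4, JAZ3, JAZ6 and MYC4 are among the genes with separated colours, and DAD1 and THI2.1 sit at 0.

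**Figure D2:**
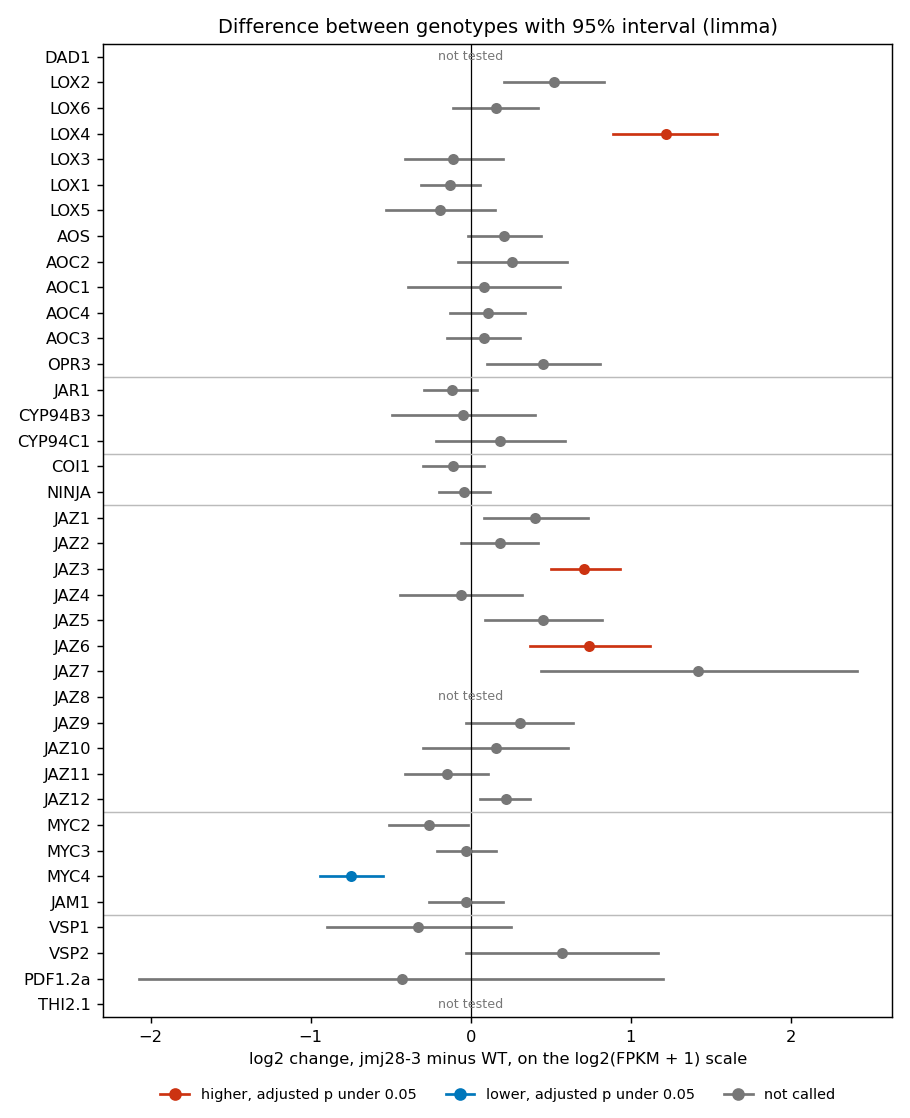
Log2 change of each tested gene (jmj28-3 minus WT, on the log2(FPKM + 1) scale) with its 95% interval from limma, not adjusted for the number of genes. Red marks LOX4, JAZ3 and JAZ6, called higher, blue marks MYC4, called lower, grey marks the 31 genes not called, and DAD1, JAZ8 and THI2.1 were not tested.

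The upstream sequences of the 4 called genes are shown because MYC factors bind DNA at the G-box CACGTG and at related hexamers, so the letters before each gene show which of these it carries. Each is the 250 bases before the annotated gene start in the RefSeq assembly TAIR10.1, 5′ to 3′ on the strand of the gene. They lie at chr3:6119457-6119706 on the plus strand for JAZ3, chr1:27276563-27276812 on the minus strand for JAZ6, chr1:27308263-27308512 on the plus strand for LOX4 and chr4:9935686-9935935 on the minus strand for MYC4. Capitals mark matches on either strand to the G-box CACGTG, to its variant CACATG, to the T/G-box AACGTG or to GCCGCC, the GCC-box bound by ethylene response factors, and no marked match overlaps another.
JAZ3: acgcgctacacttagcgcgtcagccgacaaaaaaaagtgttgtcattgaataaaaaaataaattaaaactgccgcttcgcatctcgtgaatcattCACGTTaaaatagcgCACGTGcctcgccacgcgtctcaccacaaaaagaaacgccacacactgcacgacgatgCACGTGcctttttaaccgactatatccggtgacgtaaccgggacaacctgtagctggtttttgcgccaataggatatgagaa
JAZ6: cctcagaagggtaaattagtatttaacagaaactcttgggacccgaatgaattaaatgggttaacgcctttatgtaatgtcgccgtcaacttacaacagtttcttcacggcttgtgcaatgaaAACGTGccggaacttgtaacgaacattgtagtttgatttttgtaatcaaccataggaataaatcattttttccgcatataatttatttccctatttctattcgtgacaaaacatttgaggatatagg
LOX4: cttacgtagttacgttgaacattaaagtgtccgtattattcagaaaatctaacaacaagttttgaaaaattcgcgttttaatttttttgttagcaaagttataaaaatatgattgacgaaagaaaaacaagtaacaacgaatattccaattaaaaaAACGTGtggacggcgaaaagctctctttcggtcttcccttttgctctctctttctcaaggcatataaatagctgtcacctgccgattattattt
MYC4: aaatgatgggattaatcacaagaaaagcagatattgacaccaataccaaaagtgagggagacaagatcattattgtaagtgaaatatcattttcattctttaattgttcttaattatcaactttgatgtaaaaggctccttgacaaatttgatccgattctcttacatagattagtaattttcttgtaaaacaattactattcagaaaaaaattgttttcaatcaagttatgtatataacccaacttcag

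JAZ3 carried the G-box CACGTG at 140 and at 82 bases before its start and AACGTG at 155, on the other strand. LOX4 carried AACGTG at 94 bases and JAZ6 the same letters at 127 bases before the start. MYC4 carried none of the 4 motifs in this window. Over the promoters of all 27443 nuclear protein-coding genes, 6.49% held CACGTG, 11.1% CACATG, 7.54% AACGTG and 1.87% GCCGCC. Of the 38 jasmonate genes, 5 (13.2%) held CACGTG, namely AOS, JAZ2, JAZ3, JAZ7 and JAZ8, 8 (21.1%) held CACATG and 11 (28.9%) held AACGTG. The 1 gene with GCCGCC was PDF1.2a, at 222 bases. Genes with a G-box included the called JAZ3 and the uncalled AOS and JAZ2, so a match in this window did not go with a call in every case. The window before JAZ6 overlaps another annotated gene, AT1G09307.

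Synthesis begins with lipases and 13-lipoxygenases. The flower lipase gene DAD1 (AT2G44810) was listed at 0 in all 4 libraries. LOX2 (AT3G45140), the main leaf 13-lipoxygenase, had 100.5 and 120.23 FPKM in the WT libraries and 143.48 and 174.74 in jmj28-3, the highest level of the 38 genes in every library. Both jmj28-3 libraries lay above both WT libraries, by 1.44-fold on the means. The log2 change was 0.52 (95% interval 0.21 to 0.83) and LOX2 was not called (adjusted p = 0.0673 in limma). LOX4 (AT1G72520, chromosome 1, 27308513 to 27312756 of TAIR10.1, plus strand, 6 exons) acts with LOX3 in wound responses and stamen development. It had 1.26 and 1.29 FPKM in the WT libraries and 4.65 and 3.95 in jmj28-3. The WT libraries were nearly equal and both jmj28-3 libraries stood well above them, at 1.27 ± 0.0212 against 4.3 ± 0.495 (SD, n = 2). The log2 change was 1.22 (SE 0.131, adjusted p = 0.0083 in limma), with a pseudocount of 1 that weighs on a gene this low, and 1.67 with a pseudocount of 0.1. Its close relative LOX3 (AT1G17420) had 2.84 and 2.89 FPKM in the WT libraries and 2.42 and 2.77 in jmj28-3, with a log2 change of -0.11 (95% interval -0.41 to 0.20). LOX4 was thus below LOX3 in both WT libraries and above it in both jmj28-3 libraries. LOX4 and LOX3 share no window of 50 bases with any other annotated transcript, so reads of that length could be told apart. LOX6 (AT1G67560), a 13-lipoxygenase of roots and vascular tissue, had 10.81 and 13.07 FPKM in the WT libraries and 13.32 and 13.44 in jmj28-3 (adjusted p = 0.427). LOX2 alone made up 87.1% to 89.7% of the summed FPKM of the 4 genes in each library, and LOX4 went from 1.09% and 0.938% of that sum in WT to 2.84% and 2.03% in jmj28-3.

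Of AOS, the 4 AOC genes and OPR3, none was called in limma, where all tested genes had 7.97% (1, OPR3, at an unadjusted p under 0.05). AOS (AT5G42650) had 72.25 and 85.2 FPKM in the WT libraries and 87.84 and 94.05 in jmj28-3, not overlapping, 1.16-fold apart on the means (95% interval of the log2 change -0.02 to 0.44). AOC1, AOC2 and AOC3 stand next to each other on chromosome 3 within 1330 bases of a neighbour, and AOC4 lies on chromosome 1. AOC2 (AT3G25770) was the highest of them, with 78.94 and 89 FPKM in the WT libraries and 87.98 and 115.31 in jmj28-3, which overlap. AOC2 held 50.9% to 54.7% of the summed FPKM of the 4 cyclase genes. The values of AOC1, AOC3 and AOC4 overlapped as well, with log2 changes of 0.08, 0.08 and 0.11. The tandem copies share 0.0799% to 2.1% of their 50-base windows with another gene, so few reads are ambiguous among them. OPR3 (AT2G06050) had 15.57 and 19.82 FPKM in the WT libraries and 22.23 and 26.79 in jmj28-3, without overlap and 1.39-fold apart. Its log2 change was 0.45 (95% interval 0.10 to 0.81), and it was not called (adjusted p = 0.126).

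The summed FPKM of the 11 synthesis genes, from DAD1 and the 13-lipoxygenases to OPR3, came to 358 and 416 in the WT libraries and to 439 and 526 in those of jmj28-3. The jmj28-3 libraries were higher, but the gap between the WT replicates was larger than that between WT replicate 2 and jmj28-3 replicate 1. WT replicate 1 held the lowest value for 8 of the 10 tested synthesis genes, where it did so for 24.0% of all tested genes. The exceptions were LOX3 and AOC1. Of the 10, LOX4 was called higher (10%, where all tested genes had 4.18%) and none lower, and the 9 others had adjusted p from 0.0673 to 0.834. At an unadjusted p under 0.05 in limma 3 were higher and 0 lower, and of all 20232 tested genes 2139 and 2764.

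The 9-lipoxygenases LOX1 and LOX5 make oxylipins outside the jasmonate branch. LOX1 (AT1G55020) had 24.14 and 26.45 FPKM in the WT libraries and 23.33 and 22.85 in jmj28-3, and LOX5 (AT3G22400) had 4.37 and 3.9 against 3.91 and 3.11. Their log2 changes were -0.13 and -0.19, and the 95% intervals ran from -0.31 to 0.06 and from -0.53 to 0.15. Neither was called in limma (0 at an unadjusted p under 0.05), where all tested genes had 7.97%.

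Hormone conjugation, turnover and perception gave no call in limma over 5 genes (0 at an unadjusted p under 0.05), where all tested genes had 7.97%. JAR1 (AT2G46370), which makes the isoleucine conjugate, had 28.71 and 30.79 FPKM in the WT libraries and 26.95 and 27.46 in jmj28-3, without overlap and 1.09-fold lower on the means (adjusted p = 0.329). The cytochrome P450 genes CYP94B3 and CYP94C1, whose enzymes oxidise and so inactivate the conjugate, were low. CYP94B3 (AT3G48520) had 1.63 and 1.16 FPKM in the WT libraries and 1.12 and 1.51 in jmj28-3, and CYP94C1 (AT2G27690) had 0.64 and 0.75 against 1.02 and 0.83. The values of CYP94C1 did not overlap, with a log2 change of 0.18 (95% interval -0.22 to 0.59). The receptor gene COI1 (AT2G39940) had 18.76 and 18.15 FPKM in the WT libraries and 17.77 and 16.34 in jmj28-3, and NINJA (AT4G28910) had 29.21 and 27.63 against 27.77 and 27.6. Their 95% intervals of -0.30 to 0.08 and -0.20 to 0.12 hold no log2 change as large as that of MYC4.

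JAZ proteins repress MYC factors, and 12 JAZ genes were measured. JAZ3 (AT3G17860, chromosome 3, 6119707 to 6123044, plus strand, 4 annotated mRNAs) had 15.07 and 16.15 FPKM in the WT libraries and 24.69 and 27.9 in jmj28-3. Both jmj28-3 libraries stood above both WT libraries, at 26.3 ± 2.27 against 15.6 ± 0.764 (SD, n = 2). The log2 change was 0.71 (SE 0.0868, adjusted p = 0.0112 in limma). JAZ6 (AT1G72450, chromosome 1, 27273968 to 27276562, minus strand, 2 annotated mRNAs) had 37.72 and 31.99 FPKM in the WT libraries and 50.92 and 67.75 in jmj28-3. These values also separated, but the jmj28-3 replicates lay farther apart, at 59.3 ± 11.9 against 34.9 ± 4.05. The log2 change was 0.74 (SE 0.15) and the adjusted p of 0.0452 in limma was just under the threshold. JAZ6 and LOX4 lie 31950 bases apart on chromosome 1. 

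JAZ7 (AT2G34600) had the largest ratio, with 0.33 and 0.31 FPKM in the WT libraries and 1.32 and 4.41 in jmj28-3. Both jmj28-3 libraries were above WT, but they differed from each other by more than replicate 1 differed from WT. JAZ7 was not called (log2 change 1.42, 95% interval 0.44 to 2.41, adjusted p = 0.096 in limma). JAZ8 (AT1G30135), whose protein lacks the usual degradation motif, was listed at 0 and at 0.14 FPKM in the WT libraries and at 0.52 and 0.47 in jmj28-3, under the filter and not tested. JAZ5 (AT1G17380) had 1 and 0.88 FPKM in the WT libraries and 1.75 and 1.56 in jmj28-3, 1.76-fold apart on the means without overlap (adjusted p = 0.134). JAZ1 (AT1G19180), a well-studied target of COI1, had 10.68 and 8.2 FPKM in the WT libraries and 13.05 and 12.38 in jmj28-3 (adjusted p = 0.134). JAZ10 (AT5G13220), a strongly jasmonate-induced member, overlapped between genotypes at 3.83 and 2.77 FPKM against 3.22 and 4.35.

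The most abundant JAZ transcripts were JAZ9, JAZ12 and JAZ6, which together made up 67.6% to 70.2% of the summed FPKM of the 12. JAZ9 (AT1G70700) had 53.91 and 64.59 FPKM in the WT libraries and 65.18 and 82.06 in jmj28-3, with the neighbouring values of WT replicate 2 and jmj28-3 replicate 1 almost equal. JAZ12 (AT5G20900) had 48.21 and 51.92 against 59.01 and 57.55, without overlap, a log2 change of 0.22 (95% interval 0.06 to 0.37, adjusted p = 0.104). JAZ2 (AT1G74950) had 19.74 and 18.14 against 20.05 and 23.18. JAZ4 (AT1G48500) overlapped, at 2.73 and 3.73 against 3.03 and 3.03. JAZ11 (AT3G43440) was the 1 tested member whose jmj28-3 values both lay below WT, at 13.52 and 12.95 against 12.93 and 10.79, with WT replicate 2 and jmj28-3 replicate 1 almost equal. 

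Of the 11 tested JAZ genes, 2 were called higher (18.2%, where all tested genes had 4.18%) and none lower. At an unadjusted p under 0.05 in limma 6 were higher and 0 lower, and of all 20232 tested genes 2139 and 2764. In 8 of the 11 both jmj28-3 libraries lay above both WT libraries (72.7%, where all tested genes had 22.4%). The log2 changes ran from -0.15 to 1.42 with a median of 0.31, where that of all tested genes was -0.03. JAZ7 is counted in the 6 and in the 8 and gave the 1.42. It passed the filter through jmj28-3 alone, so it could only appear as higher. The FPKM of the 12 genes summed to 207 and 212 in WT and to 256 and 295 in jmj28-3. JAZ6 gave 18.2% and 15.1% of the sum in WT and 19.9% and 22.9% in jmj28-3, and JAZ3 gave 7.29% and 7.63% against 9.66% and 9.44%. In the bulk RNA of whole seedlings, more or fewer cells of a type and more or less RNA per cell cannot be told apart.

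**Figure D3:**
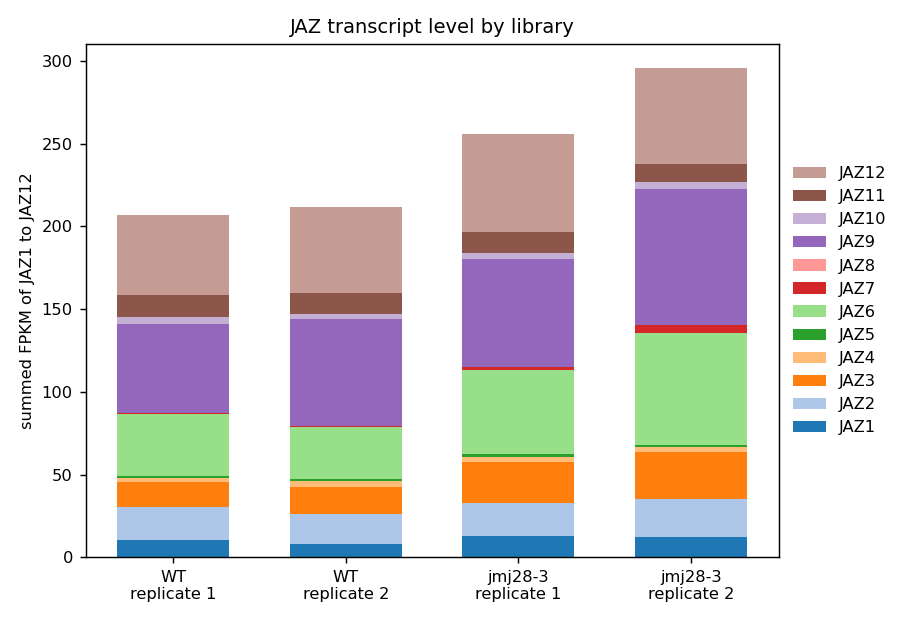
Summed FPKM of JAZ1 to JAZ12 (vertical axis) in each of the 4 libraries, stacked by gene. The WT bars reach 207 and 212 and the jmj28-3 bars 256 and 295, with JAZ9, JAZ12 and JAZ6 as the widest bands.

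The bHLH factors MYC2, MYC3 and MYC4 act in part redundantly as activators, and JAM1 competes with them as a repressor. MYC4 (AT4G17880, chromosome 4, 9933326 to 9935685, minus strand, 1 exon) had 14 and 13.95 FPKM in the WT libraries and 7.76 and 8.09 in jmj28-3. The replicates of each genotype were close to each other and the genotypes stood clearly apart, at 14.0 ± 0.0354 against 7.92 ± 0.233 (SD, n = 2). The log2 change was -0.75 (SE 0.0781, adjusted p = 0.00768 in limma). MYC2 (AT1G32640), the main regulator, had 14.22 and 16.79 FPKM in the WT libraries and 12.66 and 12.82 in jmj28-3, without overlap, 1.22-fold lower on the means and not called (log2 change -0.26, adjusted p = 0.184). AT1G32630, on the other strand, overlaps 3241 bases of MYC2, and no label says that counting took strand into account, so reads of the pair may not be separated. MYC3 (AT5G46760) was the highest of them and overlapped, with 26.23 and 25.04 FPKM in the WT libraries and 24.04 and 26.22 in jmj28-3 (95% interval of the log2 change -0.21 to 0.16). JAM1 (AT2G46510) had 7.73 and 7.09 FPKM in the WT libraries and 7.25 and 7.21 in jmj28-3 (95% interval -0.26 to 0.20). MYC4 was 25.7% and 25% of the summed FPKM of the 3 MYC genes in WT and 17.5% and 17.2% in jmj28-3. The MYC sum reached 54.5 and 55.8 in the WT libraries and 44.5 and 47.1 in the jmj28-3 libraries.

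**Figure D4:**
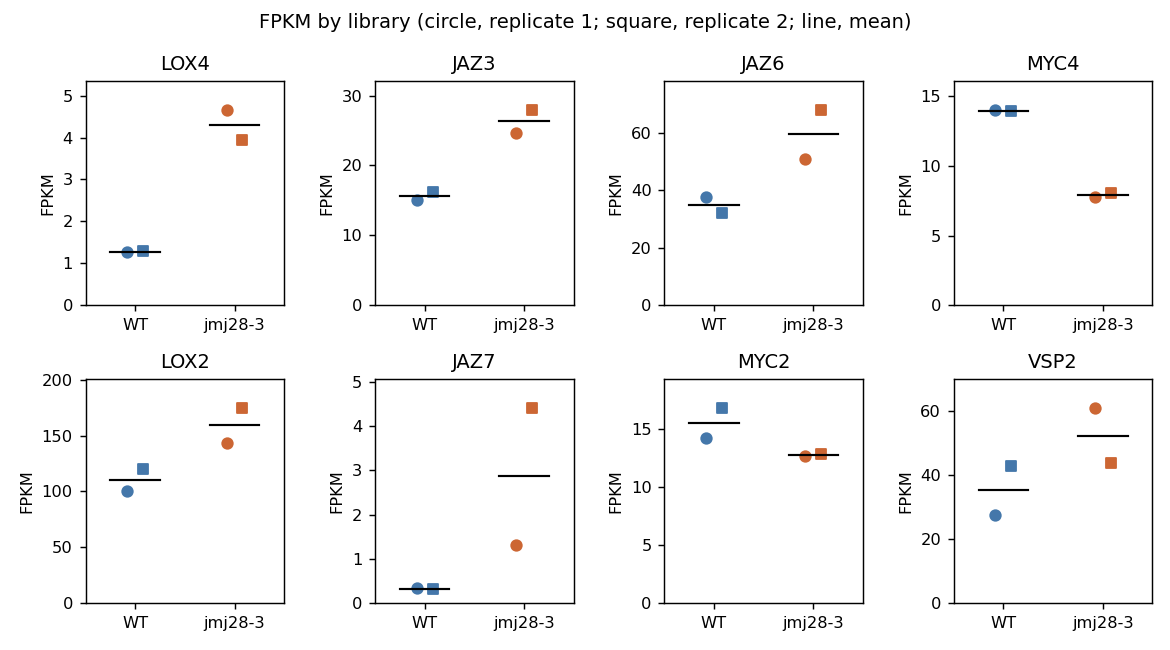
FPKM in each library (vertical axes, from 0, each on its own scale) for the called genes LOX4, JAZ3, JAZ6 and MYC4 (top) and the uncalled LOX2, JAZ7, MYC2 and VSP2 (bottom), with circles for replicate 1, squares for replicate 2 and lines at the means. The libraries of the genotypes do not overlap for any gene shown, called or not, and for 55.2% of all tested genes. The jmj28-3 replicates of JAZ7 were 1.32 and 4.41.

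Response genes are the usual readouts of the hormone, with VSP1 and VSP2, for vegetative storage proteins, on the MYC branch and the defensin gene PDF1.2a on the branch shared with ethylene. VSP2 (AT5G24770) had 27.58 and 42.98 FPKM in the WT libraries and 60.98 and 43.69 in jmj28-3. The jmj28-3 values were both above WT, but WT replicate 2 and jmj28-3 replicate 2 were almost equal, and VSP2 was not called (log2 change 0.57, 95% interval -0.03 to 1.17, adjusted p = 0.227). VSP1 (AT5G24780), 5365 bases from VSP2 on chromosome 5, had 5.93 and 9.41 FPKM in the WT libraries and 4.91 and 6.76 in jmj28-3, which overlap, with a log2 change of -0.33 (95% interval -0.90 to 0.25). The 2 genes share under 1% of their 50-base windows, 0.394% for VSP1 and 0.343% for VSP2. PDF1.2a (AT5G44420) had 6.56 and 0.97 FPKM in the WT libraries and 1.1 and 2.9 in jmj28-3, so the WT replicates differed from each other more than the genotypes did. The thionin gene THI2.1 (AT1G72260), known from flowers and induced seedlings, was listed at 0 in all 4 libraries. Of the 3 tested response genes none was called in either direction (0 at an unadjusted p under 0.05). Over all tested genes 7.97% were called, and with 3 genes a count of 0 cannot be told from that share.

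The other genes of the pathway came from a written list of 42, with enzymes of beta-oxidation, modification and turnover of jasmonate, further bHLH factors and further response genes. Of these, 29 were tested, none was called higher and 2 were called lower, 6.90% against the 3.79% of all tested genes. At an unadjusted p under 0.05 in limma 6 were higher and 3 lower, and of all 20232 tested genes 2139 and 2764. CLH1 (AT1G19670), for a jasmonate-induced chlorophyllase, had 48.02 and 48.88 FPKM in the WT libraries and 24.06 and 29.7 in jmj28-3, 1.80-fold lower (adjusted p = 0.0125 in limma). HPL1 (AT4G15440) is named for hydroperoxide lyases, a class of enzymes that use 13-lipoxygenase products as AOS does. Whether it gives an active enzyme in these plants was not measured. It had 3.33 and 3.71 FPKM in the WT libraries and 1.93 and 1.87 in jmj28-3, 1.85-fold lower (adjusted p = 0.0384 in limma). Neither gene overlapped between the genotypes, as 55.2% of all tested genes did not. The 4 genes nearest to a call were chosen after their values were seen. OPR1 (AT1G76680), a relative of OPR3, had 75.65 and 65.63 FPKM in the WT libraries and 91.7 and 109.45 in jmj28-3 (adjusted p = 0.0542). OPCL1 (AT1G20510), the ligase that activates the OPR3 product for beta-oxidation, had 12.71 and 11.26 against 15.53 and 18.55 (adjusted p = 0.0685). KAT2 (AT2G33150), the thiolase of beta-oxidation, had 108.38 and 108.95 against 124.19 and 137.75 (adjusted p = 0.0715). MYC5 (AT5G46830), a relative of MYC4, had 2.44 and 3.85 against 1.44 and 1.07 (adjusted p = 0.0697). None of these 4 overlapped between the genotypes, as 55.2% of all tested genes did not, and none was called.

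The calls rest on 2 libraries per genotype. LOX4, JAZ3, JAZ6 and MYC4 were each no longer called when any single library was left out, with adjusted p of 0.0507 to 0.0755, 0.0543 to 0.109, 0.0562 to 0.191 and 0.0518 to 0.0871, while the log2 changes stayed between 1.12 and 1.31, 0.63 and 0.80, 0.54 and 0.94, and -0.77 and -0.72. Without jmj28-3 replicate 1, JAZ7 was called instead (log2 change 2.04, adjusted p = 0.0387), and without jmj28-3 replicate 2 its log2 change was 0.81 (adjusted p = 0.19). The JAZ7 call depends on the filter, since with the minimum mean of 0.5 FPKM taken over all 4 libraries its adjusted p without jmj28-3 replicate 1 was 0.0521. The call on JAZ6 was also lost with quantile normalization (adjusted p = 0.0512), with no filter (0.099) and with no variance trend (0.0997). HPL1 was lost in each leave-out (adjusted p of 0.117 to 0.215), and CLH1 without WT replicate 1 (0.0875) and without WT replicate 2 (0.0833), and with the filter over all 4 libraries in each leave-out (0.0526 to 0.0974).

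**Figure D5:**
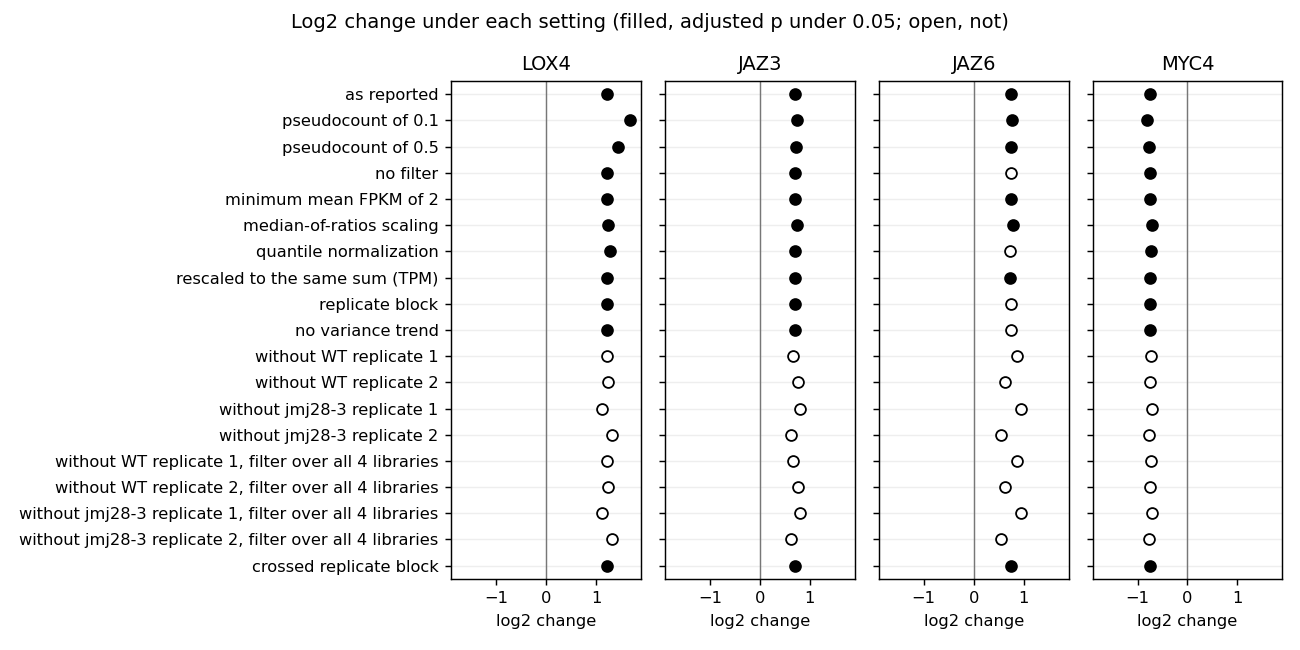
Log2 change (jmj28-3 minus WT, horizontal axes) of LOX4, JAZ3, JAZ6 and MYC4 under the reported setting and each alternative, filled where the adjusted p was under 0.05. The changes kept their sides of 0 throughout, and all points of the fits that leave out a library are open, with the filter over the libraries kept or over all 4.

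Other gene lists were measured in the same libraries. The list of touch and rapid stress genes was chosen with earlier results of these data known. Of its 12 genes, such as TCH3, WRKY33 and ZAT12, 9 were called higher (75%, where all tested genes had 4.18%). All 12 lay above WT in both jmj28-3 libraries (100%, where all tested genes had 22.4%). ERF13, counted in the 12, had a mean of 0.325 FPKM in WT and 1.34 in jmj28-3. It passed the filter through jmj28-3 alone, so it could only appear as higher. The FPKM of the 12 summed to 149 and 146 in WT and to 790 and 746 in jmj28-3. Of 11 root markers, 1 (SCR) was called lower and none higher (9.09% lower, where all tested genes had 3.79%). At an unadjusted p under 0.05 in limma 5 were lower and 0 higher, and of all 20232 tested genes 2764 and 2139. In both jmj28-3 libraries 7 lay below WT and 1 above (63.6% and 9.09%, where all tested genes had 32.7% and 22.4%). The root markers summed to 179 and 197 in WT and to 161 and 145 in jmj28-3. None of 7 shoot markers was called, where all tested genes had 7.97% (2 were lower at an unadjusted p under 0.05 in limma). In jmj28-3, 4 of the 7 lay below WT in both libraries and 1 above (57.1% and 14.3%, where all tested genes had 32.7% and 22.4%). Their sums were 42828 to 45466 in WT and 42354 to 43251 in jmj28-3, with RBCS1A as the largest part. Of 4 flower markers, AP3, PI and AG had means under the filter, and SEP3 had 9.61 and 3.37 FPKM in the WT libraries and 4.08 and 5.71 in jmj28-3. Chloroplast transcripts took 0.0687% and 0.0711% of the FPKM total in the WT libraries and 0.213% and 0.146% in the jmj28-3 libraries. The part of handling, tissue makeup or RNA quality in the values of the jasmonate genes was not tested.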

How the data were processed

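The authors deposited FPKM values for 4 libraries, 1 column each with 2 decimals, and 0 value columns were left unmatched. TopHat, RSEM and edgeR are the tools and TAIR10 the build named, per the submitters' processing notes, with no version, setting or use of strand. Since FPKM carry no counts, count models were not applied, and depth and its precision are known only as relative values. The test was limma 3.58.1 (R 4.3.3) on log2(FPKM + 1), with genotype as the only term, a trended prior variance, a minimum mean of 0.5 FPKM and Benjamini-Hochberg adjustment over 20232 genes at 0.05, two-sided. Log2 changes understate those of low genes. Folds are ratios of mean FPKM. The test was also run on simulated data with independent noise in each library, which checks the code and not the calls made here. The 38 genes and all lists were chosen with earlier results of these data known. Full values are given for called genes, for genes without overlap that differed at least 1.5-fold and for the highest gene of each role. Of the other pathway list, the called genes are named by rule. The uncalled OPR1, OPCL1, KAT2, MYC5, PDF1.3, PDF1.2b and ORA59 were named outside that rule, after values were seen. Gene models, sequences and 50-base windows came from the RefSeq assembly TAIR10.1 by identifier, with 38 of 38 found. Its sequence was not compared with the authors' build, and the table has no coordinates. Settings tried besides were a pseudocount of 0.1 or 0.5, testing with no filter or with a minimum mean of 2 FPKM, median-of-ratios scaling, quantile normalization, rescaling to the same sum (TPM), a replicate block, no variance trend and each library left out, with the minimum mean taken over the libraries kept.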

Additional observations from a re-analysis of the deposited data

How the results depend on the processing

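With 2 libraries per genotype, fits that left out a library had 1 residual degree of freedom and assumed that the lone library varies like the pair. In them 0 to 1 of the jasmonate genes were called higher, 0 to 0 lower, and 0 to 1 of the other pathway genes lower, against 3, 1 and 2 with all libraries. These fits were first run with the minimum mean taken over all 4 libraries, and the filter was changed to the libraries kept after those results were seen. With the first filter the leave-outs called 0 jasmonate genes and 0 other pathway genes in either direction, with 51 to 350 genes higher and 15 to 130 lower in all, against 70 to 398 and 21 to 164 with the second. Of the other pathway genes, 1 was called higher at a minimum mean of 2 FPKM and 2 with median-of-ratios scaling, against 0, and 1 was called lower with no filter or the replicate block. Same-numbered libraries deviated from their genotype means with a correlation of -0.133 over 20232 genes. The labels give no shared origin for a number, so whether the numbers pair the libraries is not known. The reported fit used no pairing. With the replicate block LOX2 was called (0.52, adjusted p = 0.0242) and JAZ6 was not (adjusted p = 0.0891), leaving 3 jasmonate genes higher and 1 lower, and 534 genes higher and 328 lower in all, against 846 and 767. A crossed pairing, added after seeing the data but before that correlation, called 6 jasmonate genes higher and 1 lower, and 3 other pathway genes higher. No filter gave 526 and 351 calls in all, and no variance trend 469 and 287.

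Of the 35 tested genes, 25 kept the sign of their log2 change in every alternative. The other 10 were not called in any. Their ranges over the leave-outs were -0.21 to 0.38 for AOC1, -0.00 to 0.16 for AOC3, -0.01 to 0.23 for AOC4, -0.19 to 0.09 for CYP94B3, -0.07 to 0.00 for NINJA, -0.23 to 0.11 for JAZ4, -0.02 to 0.33 for JAZ10, -0.09 to 0.03 for MYC3, -0.09 to 0.02 for JAM1 and -1.40 to 0.54 for PDF1.2a. A leave-out gives a gene the same log2 change with either filter, such as 0.07 for CYP94B3 without jmj28-3 replicate 1 and 0.02 for PDF1.2a without the same library. CYP94B3 was at 0.02 with quantile normalization, and MYC3 and JAM1 at 0.00 with median-of-ratios scaling. The causes were not tested. The unknown depth limits genes of under about 1 FPKM most, such as JAZ7 and JAZ8 in WT.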

Other observations

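Another defensin gene was also highest in WT replicate 1, as PDF1.2a was. PDF1.3 (AT2G26010) had 39.28 FPKM in WT replicate 1, against 2.95 in WT replicate 2 and 3.19 and 7.24 in jmj28-3, and was not called (log2 change -1.10, adjusted p = 0.586 in limma). PDF1.2b (AT2G26020) had 1.07 FPKM in WT replicate 1 and 1.06 in jmj28-3 replicate 2 and was listed at 0 in the other libraries. These genes were named after their values were seen, and the ethylene branch factor ORA59 (AT1G06160) had 2.13 and 1.02 FPKM in the WT libraries and 1.93 and 4 in the jmj28-3 libraries.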
